A study of Mus musculus with 3 samples.

Results

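The osteocalcin genes Bglap, Bglap2 and Bglap3 and the matrix Gla protein gene Mgp were followed in the mandibular condyle of mice that lacked 1 or both copies of Dspp. These 4 genes were taken by symbol from a table of 26970 genes, with no threshold on their values, and all 4 were present. The study asked how loss of dentin sialophosphoprotein, an extracellular protein of dentin and bone encoded by Dspp, bears on the condyle, the cartilage-capped bony end of the lower jaw. RNA of condyles was sequenced in 3 libraries: WT (Dspp+/+), HE (Dspp+/-) and HO (Dspp-/-), all from mice of 4 months with a global Dspp deletion or its intact allele on the C57BL/6 background. The methods state that tissue of 3 animals was pooled for WT and likewise for Dspp+/-. The number of animals behind the Dspp-/- library is not stated there. Each genotype is thus 1 library with no replicate, so no test between genotypes was possible. Intervals given here are 95% intervals for counting error alone and leave out the spread between animals and between dissections. Dspp itself was not analysed here.

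Osteocalcin and matrix Gla protein are small secreted proteins whose glutamate residues are carboxylated in a vitamin K-dependent reaction, which lets them bind calcium. Osteocalcin is made by mature osteoblasts and osteocytes, is stored in bone mineral and is also released to the blood, and mouse has several copies of its gene. Matrix Gla protein is made by chondrocytes, vascular smooth muscle cells and fibroblasts, binds bone morphogenetic proteins (BMPs), and is known as an inhibitor of calcification in cartilage and arteries. In bulk tissue, fewer cells of a type and less RNA per cell cannot be told apart.

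The 3 osteocalcin copies are so alike that sequencing fragments can be hard to assign, and their coding sequences are shown for that reason. They are read from 5′ to 3′ from GRCm38 with the GENCODE M21 annotation. Capitals in Bglap mark the bases that differ from Bglap2, and capitals in Bglap2 and Bglap3 mark the bases that differ from Bglap.
Bglap: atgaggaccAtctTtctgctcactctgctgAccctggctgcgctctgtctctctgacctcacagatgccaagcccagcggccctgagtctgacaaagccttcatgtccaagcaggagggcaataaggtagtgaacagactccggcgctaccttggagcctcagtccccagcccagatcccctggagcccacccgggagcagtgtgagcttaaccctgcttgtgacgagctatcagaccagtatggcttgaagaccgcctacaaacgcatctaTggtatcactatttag
Bglap2: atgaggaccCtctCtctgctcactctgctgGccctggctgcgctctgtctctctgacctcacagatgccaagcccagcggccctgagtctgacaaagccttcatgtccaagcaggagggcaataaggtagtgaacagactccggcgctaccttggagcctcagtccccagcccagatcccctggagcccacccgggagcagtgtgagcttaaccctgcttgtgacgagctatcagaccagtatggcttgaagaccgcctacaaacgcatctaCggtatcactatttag
Bglap3: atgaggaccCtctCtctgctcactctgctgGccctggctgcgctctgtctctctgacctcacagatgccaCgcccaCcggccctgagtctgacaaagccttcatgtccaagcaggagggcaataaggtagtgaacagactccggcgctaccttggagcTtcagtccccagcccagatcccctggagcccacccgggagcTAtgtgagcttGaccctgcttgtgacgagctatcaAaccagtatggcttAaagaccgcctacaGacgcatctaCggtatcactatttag
Each coding sequence has 288 bases. Bglap and Bglap2 differed by 4 substitutions (98.6% identical) and shared an unbroken run of 241 bases, 83.7% of the coding sequence. Bglap3 differed by 13 substitutions from Bglap (95.5% identical) and by 9 from Bglap2 (96.9% identical). Of all stretches of 100 bases in the Bglap transcript, 56.3% (192 of 341) also stood in the Bglap2 transcript. At 150 bases, the read length, this share was 31.6% (92 of 291). Bglap3 shared 3.24% of its stretches of 100 bases with Bglap2 and none of 150 bases with any other gene. The Mgp transcript shared none of either length with another gene. How fragments that fit several genes were assigned is not given in the sources used here, so the division of counts between Bglap and Bglap2 is uncertain.

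The values are FPKM, fragments per kilobase of exon scaled to the mapped fragments of the library, and whole fragment numbers could be recovered from them. Recovered depth was 20241576 fragments in WT against 23613621 in Dspp+/- and 22253157 in Dspp-/-. Comparisons used the 13026 genes whose mean over the libraries reached 1 FPKM, as the difference of log2(FPKM + 1), which understates the change of low genes. The libraries also differed in the makeup of their RNA. Summed over 6 erythroid markers, the level was 881 FPKM in WT against 3662 in Dspp+/- and 3521 in Dspp-/-, and over 7 neutrophil markers it was 589, 2555 and 3454 FPKM. Mitochondrially encoded genes held 25.0%, 36.9% and 37.3% of all FPKM. Xist, the RNA of the inactive X chromosome, stood at 0.00551 FPKM in WT against 28.5 in Dspp+/- and 26.5 in Dspp-/-. The Y-linked gene Ddx3y stood at 22.5, 11.1 and 15.1 FPKM in the same order. The labels do not give the sex of the pooled animals, and sex and genotype cannot be told apart in any comparison of a mutant with WT.

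Bglap (ENSMUSG00000074483), the main osteocalcin gene of bone, was among the most abundant mRNAs of the condyle and was lower in both mutant libraries. It lies on the minus strand at chr3:88290808-88291771 in the positions of the deposited table. Its level was 1353 FPKM in WT (interval 1333 to 1374, from 16930 fragments) against 386 FPKM in Dspp+/- (376 to 396, from 5626) and 778 FPKM in Dspp-/- (763 to 793, from 10701). The order was WT, then Dspp-/-, then Dspp+/-, and no interval of one library reached that of another. By level, Bglap ranked 19 among all genes in WT against 69 in Dspp+/- and 28 in Dspp-/-. It held 0.439% of all FPKM in WT against 0.107% in Dspp+/- and 0.223% in Dspp-/-.

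The FPKM ratio of Bglap was 0.285 (interval 0.276 to 0.294) for Dspp+/- over WT and 0.575 (0.561 to 0.589) for Dspp-/- over WT. The library that lacked 1 copy of Dspp therefore stood further from WT than the library that lacked both. Set against each other, Dspp-/- stood 2.02 times higher (1.95 to 2.08) than Dspp+/-. On the log2(FPKM + 1) scale the differences were -1.81, -0.80 and 1.01 in this order. Only 39 of the 13026 genes (0.299%) lay further below WT in Dspp+/- than Bglap, against 414 (3.18%) in Dspp-/-. Between the mutants, 104 genes (0.798%) had a higher ratio of Dspp-/- to Dspp+/- than Bglap. The comparisons with WT share the single WT library, so any fault of that library enters both.

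Of the 4 genes, 3 passed the minimum of 1 FPKM (Bglap, Bglap2 and Mgp). All 3 were at least 2-fold lower in Dspp+/- than in WT on the log2(FPKM + 1) scale, where 2.86% of all genes compared were, and 0 were at least 2-fold higher, where 4.88% were. Their median difference was -1.60 on the log2 scale, beside 0.06 over all genes. In Dspp-/-, 0 of the 3 reached 2-fold lower than WT, where 1.37% of all genes did, and 0 reached 2-fold higher, where 4.05% did. Their median was -0.78 beside 0.01 over all genes. Between Dspp-/- and Dspp+/-, 1 of the 3 (Bglap) was at least 2-fold higher, beside 0.852% of all genes.

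**Figure D1:**
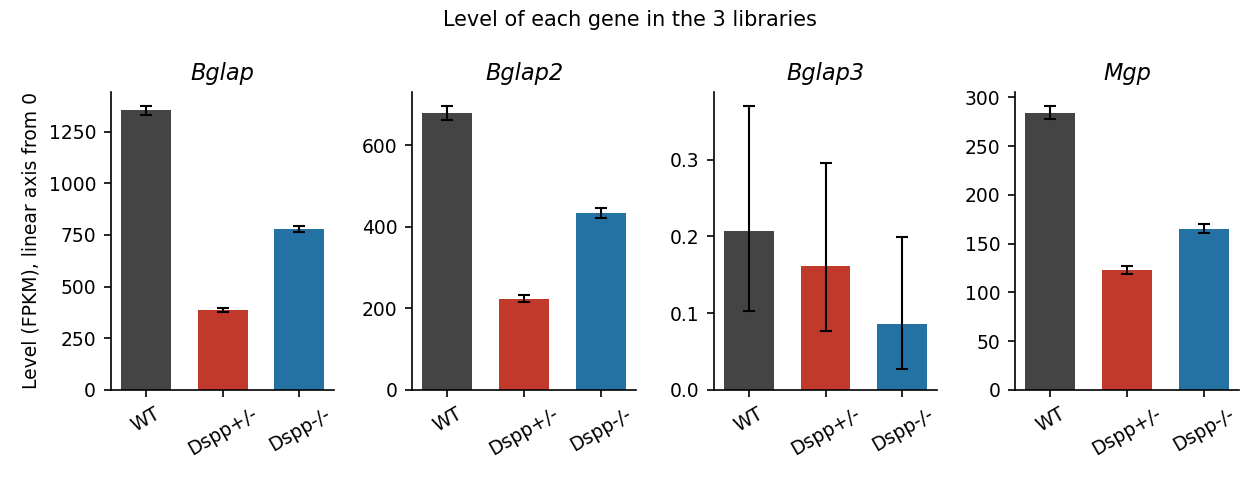
Level of each gene in FPKM on a linear axis from 0, by library (WT, Dspp+/-, Dspp-/-), with bars for the value of the single library and error bars for the 95% Poisson interval of its fragment count. Bglap, Bglap2 and Mgp are highest in WT and lowest in Dspp+/-, while the intervals of Bglap3, which rests on 5 to 11 fragments, overlap.

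Bglap2 (ENSMUSG00000074486), the copy next to Bglap, lies on the same strand at chr3:88285043-88286006 and is also active in bone. Its level was 679 FPKM in WT (interval 663 to 696) against 224 in Dspp+/- (215 to 233) and 434 in Dspp-/- (421 to 446), from 6478, 2490 and 4545 fragments. As for Bglap, WT was highest and Dspp+/- lowest, with no overlap of intervals. The FPKM ratio was 0.329 (0.314 to 0.345) for Dspp+/- over WT and 0.638 (0.614 to 0.663) for Dspp-/- over WT, and it was 1.94 (1.84 to 2.03) for Dspp-/- over Dspp+/-. Because the sequences shown above overlap so widely, these values are not independent of those of Bglap.

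Adding the fragments of both copies removes the uncertain division between them, provided that shared fragments were neither dropped nor counted for both. Whether this holds is not given in the sources used here. The sum was 23408 fragments in WT against 8116 in Dspp+/- and 15246 in Dspp-/-. Per fragment sequenced, Dspp+/- stood at 0.297 of WT (interval 0.290 to 0.305) and Dspp-/- at 0.592 of WT (0.580 to 0.605). The pair as a whole thus kept the order WT, Dspp-/-, Dspp+/-. Dspp-/- stood at 1.99 times Dspp+/- (1.94 to 2.05), so for the pair the 2-fold mark that Bglap alone passed was not quite reached. Of the fragments of the pair, Bglap held 72.3% in WT (interval 71.7 to 72.9), as against 69.3% in Dspp+/- (68.3 to 70.3) and 70.2% in Dspp-/- (69.5 to 70.9). The share in each mutant lay below that in WT by more than counting error, while the intervals of the mutants overlapped. These intervals take the division of fragments between the copies as given and leave out errors of assignment.

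The order of levels between the genes depends on the length by which fragments were divided. The FPKM values fit division by the merged length of all annotated exons, which is 618 bases for Bglap and 1187 for Mgp, because each has a transcript with a retained intron beside the coding one. The coding transcripts have 440 and 617 bases, while for Bglap2 both lengths are 471. On the deposited FPKM scale, Bglap stood above Bglap2 by a factor of 1.99 in WT against 1.72 in Dspp+/- and 1.79 in Dspp-/-. Per base of coding transcript, a choice made after the values were seen, the Bglap levels became 1901, 541 and 1093 FPKM and those of Mgp 546, 236 and 318. Bglap remained the highest in every library on both scales. Bglap2 stood above Mgp in all libraries on the deposited scale, by a factor of 2.39, 1.82 and 2.62. Per base of coding transcript this factor was 1.24 in WT and 1.36 in Dspp-/-, but 0.948 in Dspp+/-, where the intervals (215 to 233 for Bglap2, 228 to 244 for Mgp) overlapped. Ratios of 1 gene between libraries are the same under either length.

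**Figure D2:**
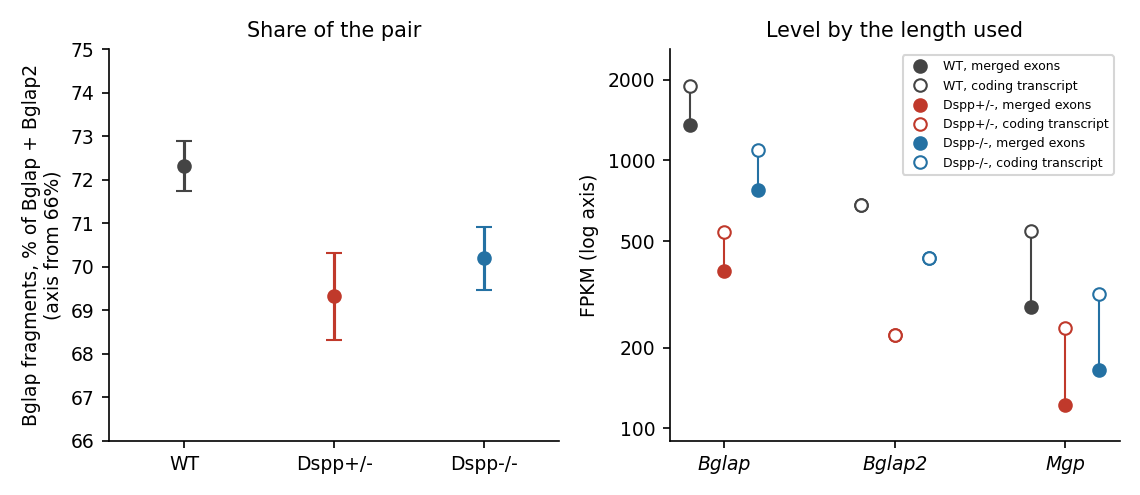
The left plot gives the percentage of Bglap among the fragments of Bglap and Bglap2 in each library with its 95% binomial interval, on an axis that starts at 66%, and WT lies highest at 72.3%. The right plot gives FPKM on a log axis per merged exon length (filled) and per coding transcript length (open), which coincide for Bglap2 and move Bglap and Mgp upward.

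Bglap3 (ENSMUSG00000074489), the third copy at chr3:88275923-88280050 and also on the minus strand, was barely detected. Its level was 0.207 FPKM in WT (interval 0.103 to 0.370) against 0.161 in Dspp+/- (0.0772 to 0.296) and 0.0855 in Dspp-/- (0.0278 to 0.199). These levels rest on 11, 10 and 5 fragments, and the intervals overlap throughout. The ratios to WT were 0.779 (0.297 to 2.02) for Dspp+/- and 0.413 (0.113 to 1.29) for Dspp-/-, so a difference was not detectable at this depth. The gene did not pass the minimum of 1 FPKM and entered no comparison.

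Mgp (ENSMUSG00000030218), the gene of matrix Gla protein at chr6:136849433-136852821 on the minus strand, was also lower in both mutant libraries. Its level was 284 FPKM in WT (interval 277 to 291, from 6824 fragments) against 123 in Dspp+/- (119 to 127, from 3440) and 165 in Dspp-/- (160 to 170, from 4367). WT was again highest and Dspp+/- lowest, and no intervals overlapped. The FPKM ratio was 0.432 (0.415 to 0.450) for Dspp+/- over WT, 0.582 (0.560 to 0.605) for Dspp-/- over WT and 1.35 (1.29 to 1.41) for Dspp-/- over Dspp+/-.

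On the log2(FPKM + 1) scale, Mgp differed by -1.20 between Dspp+/- and WT and by -0.78 between Dspp-/- and WT. In Dspp+/- it lay less far below WT than Bglap, and 218 of 13026 genes (1.67%) lay further below. In Dspp-/- the ratio to WT was close to that of Bglap (0.582 against 0.575), with overlapping intervals. The FPKM ratio of Bglap to Mgp was 4.77 in WT against 3.14 in Dspp+/- and 4.71 in Dspp-/-. The Dspp+/- library therefore stood apart from the other two in the balance of osteocalcin to matrix Gla protein.

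The promoter of Bglap is shown because the gene is a textbook target of Runx2, the master transcription factor of osteoblasts, beside the first of the 3 listed promoters of the barely detected copy Bglap3. The promoter set used held none for Bglap2 or Mgp, so whether the letters marked below go with the level of a copy was not tested. Both are 250 bases before the start on the minus strand, from RefSeq on GRCm38.p6, at chr3:88384467-88384716 for Bglap and chr3:88372742-88372991 for Bglap3. Capitals in Bglap mark ACCACA, the core letters bound by Runx factors, and TATAAA, at which the general transcription machinery assembles.
Bglap: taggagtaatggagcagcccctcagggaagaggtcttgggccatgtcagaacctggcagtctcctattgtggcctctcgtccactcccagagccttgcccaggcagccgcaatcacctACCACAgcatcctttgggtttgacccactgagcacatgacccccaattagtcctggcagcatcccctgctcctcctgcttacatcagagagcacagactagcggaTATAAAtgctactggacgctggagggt
Bglap3: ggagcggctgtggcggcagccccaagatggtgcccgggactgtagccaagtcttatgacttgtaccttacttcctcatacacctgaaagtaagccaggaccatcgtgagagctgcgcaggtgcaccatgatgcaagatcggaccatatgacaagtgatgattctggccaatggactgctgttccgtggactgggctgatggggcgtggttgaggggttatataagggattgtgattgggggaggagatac
In Bglap, ACCACA stood at -132 to -127 from the start and TATAAA at -27 to -22. Both strands were searched for these exact words, and none of the 3 Bglap3 windows held either. The Bglap3 window shown does hold the similar letters tatataag near its end, which a search for TATAAA does not count. Among 32851 promoters of the same length, 14.0% held ACCACA and 12.4% held TATAAA on either strand, so a match is common and describes letters only, and no match says only that these letters are not in the window. The E-box CANNTG was found in the Bglap window (CACATG at -100 to -95) and in all 3 Bglap3 windows. In the Bglap3 window shown it stood at several places, the first being CACCTG at -171 to -166. Of all promoters, 66.2% held it.

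The more abundant genes that flank the osteocalcin copies differed far less between the libraries than Bglap did. Upstream of Bglap, Pmf1 stood at 2.63 FPKM in WT against 3.04 in Dspp+/- and 2.77 in Dspp-/-, and Slc25a44, a mitochondrial carrier, at 8.56, 10.4 and 7.74 FPKM. Downstream of Bglap3, Paqr6 was at 0.549, 0.558 and 0.241 FPKM, Smg5, a factor of nonsense-mediated decay, at 13.2, 15.3 and 11.7, and Tmem79 at 0.441, 0.436 and 0.370. On the deposited scale Pmf1, Slc25a44 and Smg5 were highest in Dspp+/-, where Bglap was lowest, although by little. Gm6821 and Gm21956, predicted genes between the copies on the other strand, stayed below 1 FPKM in every library, as did Gm42814. Around Mgp, Wbp11, a splicing factor, stood at 10.5, 12.3 and 10.4 FPKM. Arhgdib, a gene active in blood cells, stood at 13.9, 56.1 and 56.9 FPKM, higher in both mutants, as the erythroid and neutrophil markers were. Art4 was also higher in both mutants, at 0.0589, 1.14 and 0.839 FPKM, but its mean of 0.681 FPKM kept it out of the comparisons. The means of BC049715, Erp27 and Pde6h were lower still.

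**Figure D3:**
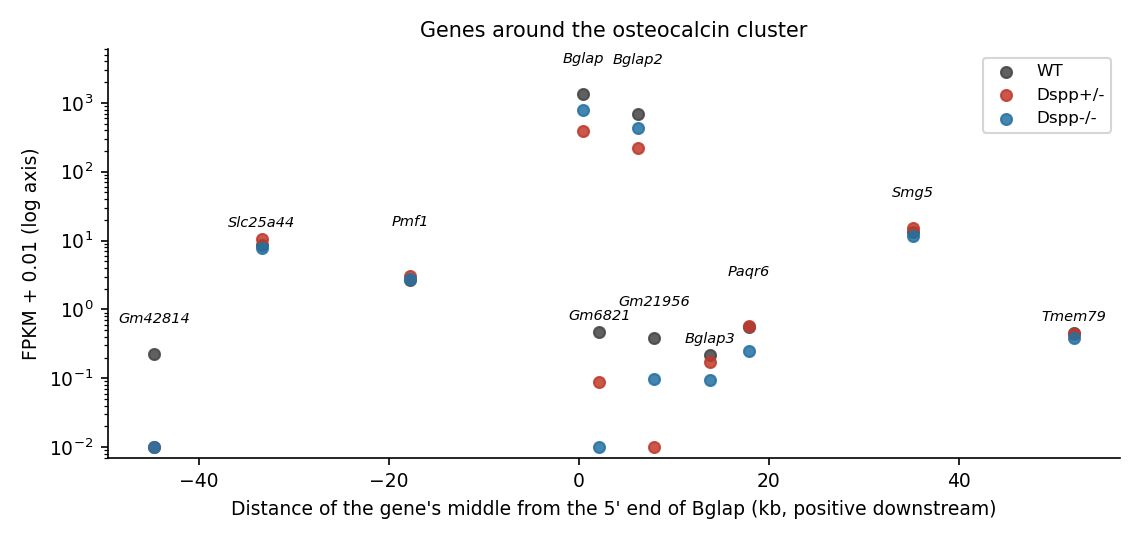
FPKM + 0.01 on a log axis against the distance in kb of each gene's middle from the 5′ end of Bglap, with 1 point per library. Bglap and Bglap2 stand far above the rest and are ordered WT, Dspp-/-, Dspp+/-, while Smg5, Slc25a44 and Pmf1 on either side hold nearly equal values and Bglap3 stays near 0.1 FPKM.

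Other genes of bone-forming cells were lower as well, so the osteocalcin genes were compared with them. Of 11 osteoblast markers other than osteocalcin, 11 lay below WT in Dspp+/- and 8 were at least 2-fold lower, with a median of -1.55 on the log2 scale, beside -1.81 for Bglap. Over all genes compared, 43.7% lay below WT in Dspp+/- and 49.3% in Dspp-/-, and 2.86% and 1.37% were at least 2-fold lower. In Dspp-/-, 10 of 11 lay below WT and 4 were at least 2-fold lower, with a median of -0.89, beside -0.80 for Bglap. The number at least 2-fold lower was 7 when hemoglobin, immunoglobulin and muscle genes were left out of the scaling, and 3 without mitochondrial genes. Bglap thus sat within the range of these markers: 4 of 11 lay further below WT in Dspp+/-, and 7 of 11 in Dspp-/-. Mgp sat nearer the upper end, with 8 of 11 further below WT in each mutant.

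Col1a1, the chain of type I collagen and the most abundant of these markers, stood at 6675 FPKM in WT against 1719 in Dspp+/- and 3610 in Dspp-/-. Ibsp, bone sialoprotein, stood at 1643, 433 and 685 FPKM, and Alpl, the phosphatase that frees phosphate for mineral, at 203, 70.8 and 97.8. These followed the order of Bglap, with Dspp+/- lowest. Relative to Col1a1, Bglap was nearly level, with 203 FPKM of Bglap per 1000 FPKM of Col1a1 in WT against 224 in Dspp+/- and 216 in Dspp-/-. Relative to Runx2 it was 0.510 of WT in Dspp+/- and 0.741 in Dspp-/-. Relative to Ibsp it was 1.08 and 1.38 of WT. Whether osteocalcin is lower or higher per osteoblast transcript therefore differs with the gene it is set against.

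Mgp per 1000 FPKM of Col1a1 was 42.5 in WT against 71.4 in Dspp+/- and 45.8 in Dspp-/-, so in Dspp+/- it was 1.68 of WT. Relative to Col2a1, the cartilage collagen, it was 3.49 of WT in Dspp+/- and 1.44 in Dspp-/-. Relative to Dcn, a proteoglycan of fibroblasts, it was 0.559 and 0.609, and relative to Acta2, an actin of smooth muscle, 0.366 and 0.572. Against WT, Mgp was thus lower relative to Dcn and Acta2 and higher relative to Col1a1 and Col2a1. Other fibroblast genes differed from Dcn: in Dspp+/- Col3a1 stood at 0.322 and Lum at 0.437 of WT, beside 0.432 for Mgp, and in Dspp-/- at 0.645 and 0.934, beside 0.582. Which cells carried the Mgp transcripts was not tested.

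The marker lists of the cell types that make these proteins differed among themselves. Of all genes compared, 2.86% were at least 2-fold lower in Dspp+/- and 1.37% in Dspp-/-, on the log2(FPKM + 1) scale of all these counts. On that scale some genes with a plain FPKM ratio past 2-fold, such as Scx in Dspp-/- (0.460), are not counted. Of 10 chondrocyte markers compared, 10 lay below WT in Dspp+/- (8 at least 2-fold lower, median -2.33) and 10 in Dspp-/- (7 at least 2-fold lower, median -1.11). With hemoglobin, immunoglobulin and muscle genes left out of the scaling, 9 and 8 were at least 2-fold lower. Without mitochondrial genes, the number in Dspp-/- was 5. Col2a1 stood at 761, 94.2 and 308 FPKM, and Col10a1, the collagen of hypertrophic chondrocytes, at 246, 17.3 and 107 FPKM. Comp, at 462, 312 and 227 FPKM, was the 1 of the 10 that was lower in Dspp-/- than in Dspp+/-. Of 6 osteocyte markers, 5 were compared, and 3 were at least 2-fold lower in Dspp+/- (median -1.42) and 3 in Dspp-/- (median -1.25). Mepe, a phosphoprotein of bone matrix, stood at 369, 107 and 124 FPKM. Sost, at 272, 167 and 111 FPKM, was the 1 of the 5 that was lower in Dspp-/- than in Dspp+/-. Fgf23, which did not reach a mean of 1 FPKM, was higher in both mutants, at 0.109, 0.397 and 0.322 FPKM from 4, 17 and 13 fragments. Of 8 tendon and fibroblast markers, 2 were at least 2-fold lower in Dspp+/- (median -0.66) and 0 in Dspp-/- (median -0.28), with Fmod, a proteoglycan that binds collagen, at 1032, 621 and 621 FPKM.

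Of 8 smooth muscle and pericyte markers, 6 were compared, with medians of 0.27 and -0.12. The 6 endothelial markers had medians of 0.11 and 0.17. In both lists, 0 of the genes compared differed by 2-fold or more in either mutant (1 smooth muscle marker was lower in each when hemoglobin, immunoglobulin and muscle genes were left out of the scaling). The 6 skeletal muscle markers had medians of 0.29 and -0.02, with 1 at least 2-fold lower in Dspp+/-. The endothelial median in Dspp+/- turned to -0.08 when hemoglobin, immunoglobulin and muscle genes were left out of the scaling, and the skeletal muscle median in Dspp-/- to 0.06 without mitochondrial genes. Of 8 osteoclast markers, 6 were at least 2-fold lower in Dspp+/- (median -1.32) and 1 in Dspp-/- (median -0.59), with Ctsk, the collagen-degrading protease, at 863, 279 and 481 FPKM. Blood cell markers differed in the other direction, in which 4.88% of all genes compared were at least 2-fold higher in Dspp+/- and 4.05% in Dspp-/-. All 6 erythroid markers (medians 2.23 and 2.23) and all 7 neutrophil markers (1.97 and 2.52) were at least 2-fold higher in both mutants, and so were 5 of 6 platelet markers in Dspp+/- and 6 of 6 in Dspp-/- (1.83 and 1.67). No marker of these lists was at 0 in any library. Whether cell makeup differed, and what part it had in the lower osteocalcin and Mgp levels, was not tested.

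**Figure D4:**
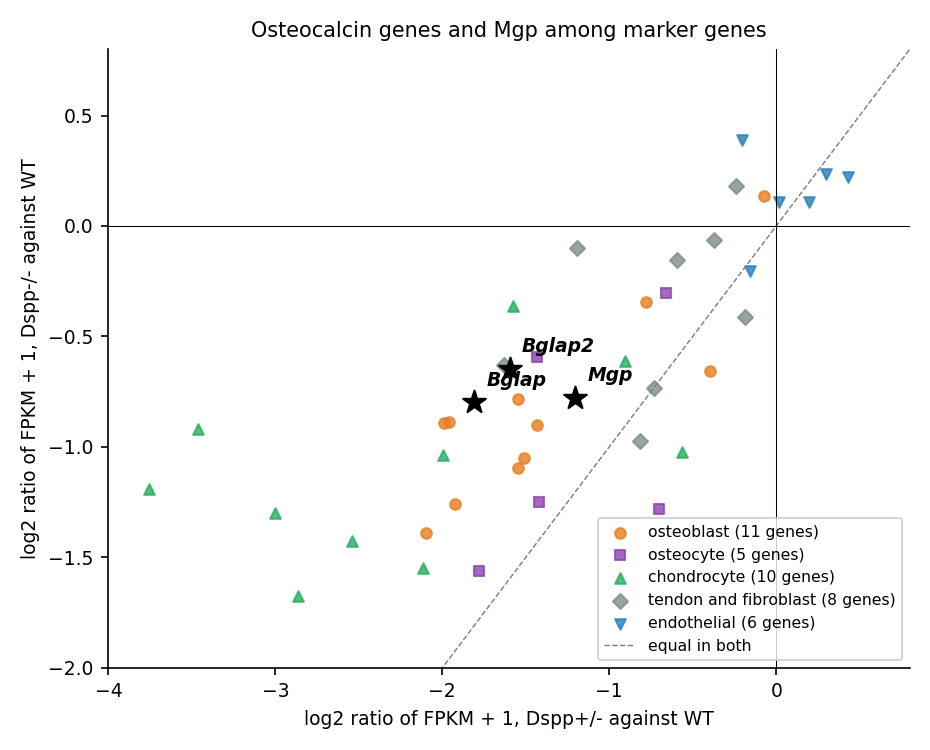
Each point is a gene, with its difference in log2(FPKM + 1) from WT in Dspp+/- on the x axis and in Dspp-/- on the y axis, and the axes share the single WT library. Bglap (-1.81, -0.80), Bglap2 (-1.60, -0.65) and Mgp (-1.20, -0.78) are stars among 5 lists of cell type markers, left of the dashed line of equal difference and therefore further below WT in Dspp+/-.

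**Figure D5:**
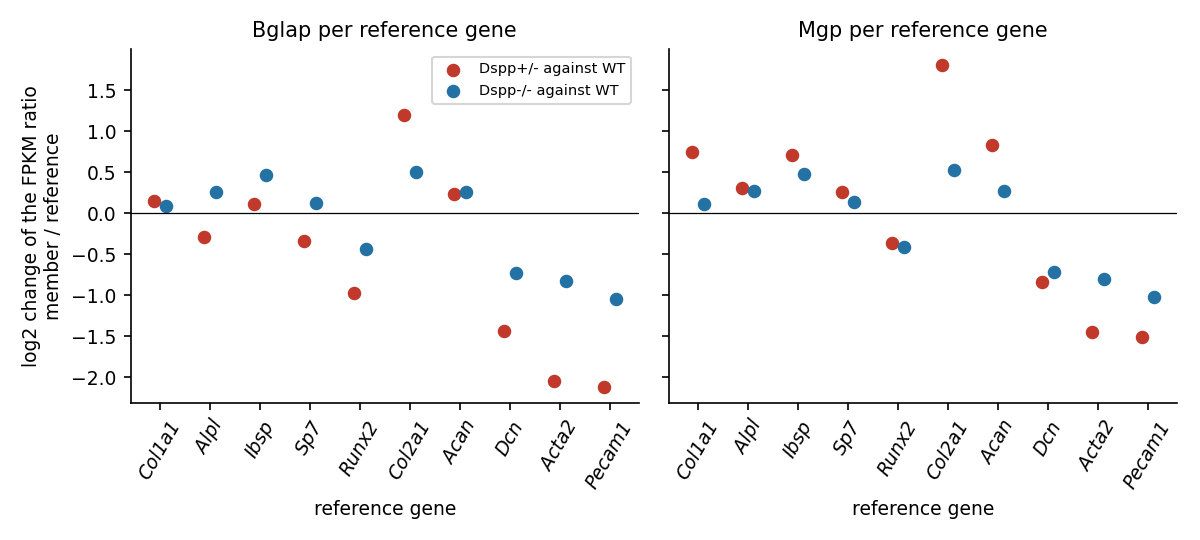
Log2 change from WT of the FPKM ratio of Bglap (left) or Mgp (right) to 10 reference genes, for Dspp+/- and Dspp-/- from single libraries. Points above 0 (Col2a1, Acan, Col1a1 and Ibsp throughout) mark reference genes that lay further below WT than the member. Points below 0 (Dcn, Acta2, Pecam1 and Runx2 throughout) mark those that lay less far below or above WT. Alpl and Sp7 lie above 0 for Mgp, while for Bglap they lie below 0 in Dspp+/- and above 0 in Dspp-/-.

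Among regulators of osteocalcin transcription, 9 of the 10 listed were compared. In Dspp+/-, 6 lay below WT (8 when hemoglobin, immunoglobulin and muscle genes were left out of the scaling) and 3 were at least 2-fold lower, with a median of -0.78, and in Dspp-/- 7 lay below WT and 1 was at least 2-fold lower, with a median of -0.34. With 43.7% and 49.3% of all genes below WT, the counts below WT in so short a list say little. At least 2-fold lower were 2.86% of all genes in Dspp+/- and 1.37% in Dspp-/-. The 3 regulators at least 2-fold lower in Dspp+/- were Sp7 (65.4 FPKM in WT against 23.6 in Dspp+/- and 34.6 in Dspp-/-), a zinc finger factor that osteoblasts require, and the homeobox factors Dlx5 (34.0, 15.6 and 21.01) and Dlx3 (15.7, 4.74 and 6.41). Dlx3 was the 1 that also reached 2-fold in Dspp-/-. Runx2 itself stood at 17.7, 9.90 and 13.8 FPKM and Vdr, the vitamin D receptor, at 22.5, 12.03 and 14.6, neither of which reached 2-fold. On the deposited scale the leucine zipper factors Atf4, at 74.3, 83.9 and 63.4 FPKM, and Cebpb, at 63.4, 85.9 and 51.5, were highest in Dspp+/-, unlike Bglap.

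Of 7 genes of the vitamin K cycle and carboxylation, which carry out the modification of these proteins, 0 differed by 2-fold or more in either mutant, which says little in so short a list. The medians were -0.40 in Dspp+/- and -0.27 in Dspp-/-. Ggcx, the carboxylase, stood at 11.1 FPKM in WT against 8.17 in Dspp+/- and 9.03 in Dspp-/-. Vkorc1, which regenerates vitamin K, stood at 6.47, 3.63 and 4.33 FPKM, and Calu, a carboxylase inhibitor of the endoplasmic reticulum, at 102, 59.3 and 79.2. All of these were lowest in Dspp+/-, where Vkorc1 stood at 0.561 and Calu at 0.579 of WT, less far below it than Bglap and Mgp there. Vkorc1l1, the paralog of Vkorc1, was nearly level at 8.58, 8.37 and 9.89 FPKM.

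The medians of other proteins with Gla residues were near 0. Of 12 in the table, 7 were compared, with medians of -0.09 in Dspp+/- and -0.04 in Dspp-/- (0.04 when mitochondrial genes were left out of the scaling). Gas6, a ligand of receptor kinases, stood at 138, 130 and 105 FPKM and Pros1, protein S, at 23.1, 16.8 and 22.5. None was at least 2-fold lower (1 in Dspp+/- when hemoglobin, immunoglobulin and muscle genes were left out of the scaling). F10, coagulation factor X, was the 1 at least 2-fold higher, at 0.308 FPKM in WT against 3.02 in Dspp+/- and 2.29 in Dspp-/-, from 17, 195 and 139 fragments. Ucma, a Gla protein of cartilage, stood at 3.52, 1.39 and 2.24 FPKM, from 63, 29 and 44 fragments. Its plain FPKM ratio to WT was 0.395 in Dspp+/-, so only the added 1 FPKM kept it short of 2-fold there.

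Among 4 inhibitors of calcification compared with Mgp, 4 lay below WT in both mutants, as 43.7% and 49.3% of all genes did, with medians of -0.82 and -0.48. At least 2-fold lower were 2.86% of all genes in Dspp+/- and 1.37% in Dspp-/-. Spp1, osteopontin, was the 1 at least 2-fold lower, in Dspp+/- (2 genes when hemoglobin, immunoglobulin and muscle genes were left out of the scaling), at 2474, 814 and 1661 FPKM, and between the mutants it was the 1 at least 2-fold higher in Dspp-/-. Enpp1, which makes the mineral inhibitor pyrophosphate, stood at 30.1, 16.3 and 22.3 FPKM, and Ank, which exports it, at 119, 104 and 103. Of the 4 BMP ligands, which matrix Gla protein is known to bind, 4 lay below WT in both mutants, with medians of -0.76 and -0.69. Bmp7, at 6.70, 2.42 and 3.11 FPKM, was the 1 at least 2-fold lower, in Dspp+/-. In Dspp-/- 0 were 2-fold lower on the log2(FPKM + 1) scale (2 when hemoglobin, immunoglobulin and muscle genes were left out of the scaling, with 2 also in Dspp+/-). As plain FPKM ratios, however, Bmp7 stood at 0.464 and Bmp4 at 0.466 of WT in Dspp-/-. Bmp6, the most abundant of the 4, was level with WT in Dspp+/- and lower in Dspp-/-, at 20.1, 19.7 and 14.8 FPKM. Bmp2 stood at 11.0, 6.52 and 7.65 FPKM and Bmp4 at 11.3, 5.84 and 5.26. Of the hormone axis of osteocalcin, 3 genes were compared and 0 reached 2-fold on the log2(FPKM + 1) scale. Their medians were 0.08 and 0.14 (-0.09 and -0.01 when hemoglobin, immunoglobulin and muscle genes were left out of the scaling). Ptprv, a phosphatase of osteoblasts that acts on the insulin receptor, stood at 3.13, 1.42 and 1.56 FPKM. Its plain FPKM ratio to WT was 0.455 in Dspp+/- and 0.499 in Dspp-/-, so only the added 1 FPKM kept it short of 2-fold. Insr, the insulin receptor, stood at 8.24, 9.55 and 9.63 FPKM.

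Genes whose pair of differences from WT lay nearest to that of a member were found among 3992 genes with at least 10 FPKM in WT. For Bglap these were Slc13a5, a citrate transporter (distance 0.0234 on the log2 scale), Col11a1 (0.0744) and Col5a2 (0.0940), fibrillar collagen chains, Wif1, a secreted Wnt inhibitor (0.1002), and C1qtnf3 (0.123). Slc13a5 stood at 11.0 FPKM in WT against 2.46 in Dspp+/- and 5.97 in Dspp-/-. Bglap2 came at rank 22, at a distance of 0.260, so the nearest gene was not the other copy. For Mgp the nearest were Rhod (0.0214), Mmp14, a membrane-bound collagenase (0.0452), Tsku (0.0734), Olfml3 (0.0776) and Maged2 (0.0782), with Mmp14 at 114, 47.3 and 66.1 FPKM. The distance rests on 3 libraries and 2 differences, so it ranks likeness in these libraries alone.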

How the data were processed

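Poly(A) RNA of condyles was sequenced as paired reads on an Illumina NovaSeq by a non-stranded kit, with 1 library for each of the 3 genotypes. The authors deposited FPKM values, 1 per gene and library, and the submitters' processing notes name FastQC 0.11.5, HISAT2 2.1.0, StringTie 1.3.3b, DESeq 1.28.0 and the build hg38, although genes and positions in the table are of mouse. The unit was inferred from the values. Multiplied by the merged exon length of GENCODE M21, the deposited FPKM gave whole fragments (within 0.1) for 26186 of 26641 genes (98.3%) in all 3 libraries. The build of the deposited positions is not given in the sources used here and is not GRCm38, from which sequences were read by gene. The labels mention triplicate libraries, but the table holds 1 column per genotype.

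Differences were taken on log2(FPKM + 1) over the 13026 genes whose mean reached 1 FPKM, and a 2-fold difference was counted. Since groups hold 1 library, no test, p-value or SD is given. Intervals are exact Poisson (levels) and Clopper-Pearson (ratios and shares), at 95%. They cover counting error only, and PCR copies were not marked. Named genes were the 4 genes in full, the most abundant members of each list and those past 2-fold (up to 6), the 3 genes on either side by position, and the 5 nearest in pattern. The members and lists were chosen with earlier results of these data known, and 1 gene of a list is not reported here and was left out of its counts. Values were computed with pandas 2.3.3 and numpy 2.4.6 in Python 3.11.15, intervals with scipy 1.17.1, alignments with Biopython 1.88 and figures with matplotlib 3.10.9, and the scripts were tested on simulated data. Motif shares came from RefSeq promoters of GRCm38.p6. Other pseudocounts, filters, thresholds, scalings and lengths were tried.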

Additional observations from a re-analysis of the deposited data

How the results depend on the processing

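No paired analysis was possible because each genotype is 1 library, and for the same reason no library could be left out. The direction of each member's difference held under every alternative run (18 for Bglap, 18 for Bglap2, 15 for Bglap3 and 15 for Mgp). Other pseudocounts and scalings could hardly reverse the larger differences, so a kept direction says little. In 11, 12, 15 and 11 of these runs, in the same order, the value stayed within the counting interval of the fold. For Bglap in Dspp+/- against WT, the log2 difference of -1.81 became -1.88 under median-of-ratios scaling, -2.002 without hemoglobin, immunoglobulin and muscle genes in the scaling, and -1.75 with the copies added up. In Dspp-/- against WT it became -0.72 without mitochondrial genes in the scaling, -0.97 without hemoglobin, immunoglobulin and muscle genes, and -0.76 with the copies added up, and in Dspp-/- against Dspp+/- it became 1.06 without mitochondrial genes, and 0.99, just short of 2-fold, with the copies added up. For Mgp, -1.20 became -1.28 under median-of-ratios scaling and -1.40 without hemoglobin, immunoglobulin and muscle genes, and -0.78 in Dspp-/- became -0.70 without mitochondrial genes and -0.95 without hemoglobin, immunoglobulin and muscle genes. That last scaling shifted the median of all genes by -0.16 in Dspp+/- and -0.14 in Dspp-/- against WT and changed the split of genes at least 2-fold higher and lower from 636 and 373 to 488 and 594 in Dspp+/-, and from 527 and 179 to 433 and 338 in Dspp-/-. It also raised the number at least 2-fold lower in Dspp+/- from 1 to 2 calcification inhibitors, from 1 to 2 BMP ligands, and from 0 to 1 in other Gla proteins and in smooth muscle markers. In Dspp-/- it raised that number from 1 to 3 osteoclast markers (0 without mitochondrial genes), from 1 to 2 regulators of osteocalcin, from 0 to 2 BMP ligands, and from 0 to 1 in smooth muscle and in fibroblast markers.

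Gene counts past the threshold (higher, then lower) varied by construction. In Dspp+/- against WT they were 971 and 605 with a pseudocount of 0.1, 185 and 156 with 5, 1501 and 1166 at 1.5-fold, 124 and 24 at 4-fold, with 281 higher at a mean of at least 5 FPKM. In Dspp-/- against WT they were 836 and 363, 136 and 45, 1152 and 1070, and 103 and 6, with 228 and 110 at a mean of at least 5 FPKM. In Dspp-/- against Dspp+/-, 111 and 104 became 223 and 214, 36 and 36, 441 and 563, and 15 and 13, with 172 and 170 without a filter and 57 and 52 at a mean of at least 5 FPKM. The fragments of Bglap3 (5 to 11) limit any statement on that copy.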
